A study of Mus musculus with 4 samples.

Results

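The genes described are 10 genes of lysosomal mTORC1 activation, namely the 5 Ragulator subunits Lamtor1 to Lamtor5, the GTPase gene Rheb, the kinase gene Mtor, Rptor, Deptor and Akt1. They were taken by name, with every probe set that names one of them alone, and all 10 were measured, by 20 probe sets of the 45037 outside the Affymetrix controls. A probe set is a group of short probes that reports 1 transcript level, and 1 further probe set names Rptor together with a second gene and was left out. Male C3H mice, 8 weeks old, were shaved on the back and treated there daily for 30 days, and total RNA was taken from the dorsal skin. Arrays TCQA 1 and TCQA 2 held skin that received 1% TCQA, the caffeic acid ester 3,4,5-tri-O-caffeoylquinic acid, and arrays Control 1 and Control 2 held skin that received Milli-Q water. TCQA had been dissolved in ethanol before it was diluted in water, and the control is described as water. There were 5 mice in a group by the methods, but whether an array held RNA of 1 mouse or of several is not given in the sources used here, so that p-values cover the array-to-array spread alone, and this may be technical.

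The mechanistic target of rapamycin complex 1 (mTORC1) is a kinase complex that drives protein and lipid synthesis when amino acids and growth factors are present. Amino acids act through the Rag GTPases, which Ragulator anchors to the lysosome surface, and growth factors act through Akt, which restrains the TSC complex and so frees Rheb to switch on the kinase. In skin, mTORC1 is known for its part in keratinocyte growth, hair cycling and pigment cell function, where it also holds back autophagy. The comparison asks how the transcripts of this machinery differed between TCQA-treated and vehicle-treated skin.

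Every value below is a log2 value as deposited, and differences are TCQA minus control on that scale. The arrays differed in range, and this bears on every member. The 9 probe sets of the bacterial hybridization spikes, which are added in fixed amounts before the array is hybridized, had a median of 10.21 on TCQA 1 and 10.68 on TCQA 2, against 6.45 on Control 1 and 10.17 on Control 2. The median of 69 ribosomal protein genes ran the other way, at 3.42 on TCQA 1 and 3.21 on TCQA 2, against 9.42 on Control 1 and 3.31 on Control 2. Of the marker lists, Control 1 was the highest array for 6 of 6 keratinocyte genes, 12 of 12 skeletal muscle genes, 5 of 5 hepatocyte genes, 4 of 5 fibroblast genes, 3 of 5 immune genes, 2 of 4 adipocyte genes, 2 of 4 endothelial genes and 0 of 6 melanocyte genes. The keratinocyte median, a check of the labelled tissue, was 2.85 on TCQA 1 and 2.85 on TCQA 2, against 8.08 on Control 1 and 3.13 on Control 2, so on 3 of the 4 arrays it lay near the median of all probe sets, which was between 2.30 and 2.55. The muscle median was 2.52 on TCQA 1 and 2.96 on TCQA 2, against 10.51 on Control 1 and 2.51 on Control 2, and the hepatocyte median was 2.79 and 3.16, against 7.56 and 2.89. Of the hepatocyte genes, Ttr was also high on TCQA 2, with 1.78 on TCQA 1 and 7.75 on TCQA 2, against 8.57 on Control 1 and 1.30 on Control 2. The 3′ minus 5′ difference of the Actb probe sets, a sign of RNA quality, was 0.84 on TCQA 1 and 0.78 on TCQA 2, against 2.53 on Control 1 and 1.01 on Control 2. The same difference for Gapdh did not set Control 1 apart, at 1.99 on TCQA 1 and 1.67 on TCQA 2, against 2.09 on Control 1 and 2.18 on Control 2. The median of the 10 genes, each with its probe set of highest mean over the 4 arrays, was 3.21 on TCQA 1 and 3.20 on TCQA 2, against 5.87 on Control 1 and 3.31 on Control 2. The part that these array-wide differences have in the results was not tested. In skin as a mixed tissue, fewer cells of a type and less RNA per cell cannot be told apart.

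**Figure D1:**
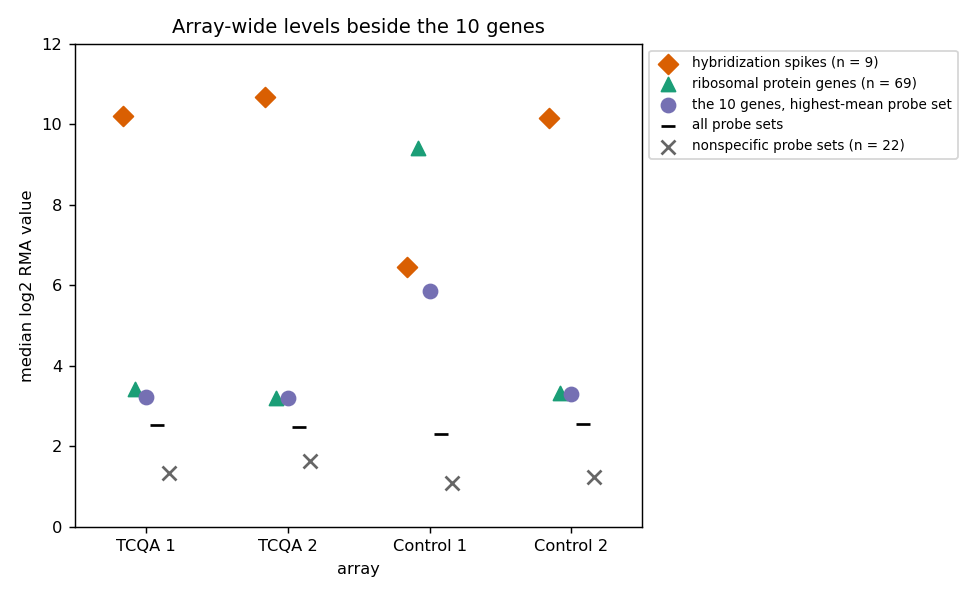
Median log2 value of the hybridization spikes, the ribosomal protein genes, the 10 genes, all probe sets and the nonspecific probe sets on each array, with the arrays on the horizontal axis and 1 symbol per group and array. The spikes are at 6.45 on Control 1 and at 10.17 or more on the other arrays, while the 10 genes are at 5.87 there and between 3.20 and 3.31 on the remaining arrays.

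Ragulator, the lysosomal scaffold, had a lower mean with TCQA than with vehicle for each of its 5 subunits in the probe set of highest mean, by 0.63 to 1.45 on the log2 scale, with a change of direction for Lamtor1 (0.81) and Lamtor3 (0.13) after a further quantile normalization of the arrays. Lamtor2 turned to 0.46 in its second probe set, which has the higher mean when Control 1 does not count. For the same choice of probe set, the log2 fold change was negative for 43.8% of all genes. Control 1 was the highest array for all 5 subunits (33.9% of all genes). None of the subunits passed the test (limma, adjusted p under 0.05), and 0% of all genes did. When Control 1 was left out, 3 subunits had a negative (54.7% of all genes) and 2 a positive log2 fold change, between -0.42 and 0.27. The median of the 5 subunits was -1.13 with all arrays and -0.26 without Control 1, and for all 17097 genes it was 0.08 and -0.03. After the further normalization the subunit median was -0.27, and it was -0.83 with probe sets averaged per gene and also with the probe set of highest mean outside Control 1.

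Upstream sequence was read for the members from RefSeq (GRCm38.p6), where 8 of the 10 genes had an entry (not Lamtor3 and Deptor). The letters CACGTG, the E-box that MiT/TFE transcription factors of lysosomal genes can bind, were searched on both strands in the 250 bases before each gene's start. They were found for Lamtor1, Lamtor4 and Rheb, in 3 of 9 member windows, and in 6.02% of all 32851 such windows. The longer CLEAR element, here the E-box with GT before it and AC after it, was in 0 of the 9 windows and in 0.24% of all. The 3 windows that hold the E-box are shown, with its letters in capitals, and the windows of Lamtor2, Lamtor5, Mtor, Rptor and Akt1 held none. A match describes the letters only.
Lamtor1, chr7:101905587-101905836, plus strand: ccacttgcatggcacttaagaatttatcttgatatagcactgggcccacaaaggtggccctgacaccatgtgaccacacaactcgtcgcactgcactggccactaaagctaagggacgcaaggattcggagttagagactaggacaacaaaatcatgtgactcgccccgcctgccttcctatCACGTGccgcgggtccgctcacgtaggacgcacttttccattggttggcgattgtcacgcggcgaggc
Lamtor4, chr5:138255232-138255481, plus strand: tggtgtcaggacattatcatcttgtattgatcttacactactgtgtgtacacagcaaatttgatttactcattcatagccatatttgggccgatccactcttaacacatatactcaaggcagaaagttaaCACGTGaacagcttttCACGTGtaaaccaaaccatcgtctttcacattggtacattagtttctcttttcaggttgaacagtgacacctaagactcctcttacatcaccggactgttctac
Rheb, chr5:24842362-24842611, minus strand: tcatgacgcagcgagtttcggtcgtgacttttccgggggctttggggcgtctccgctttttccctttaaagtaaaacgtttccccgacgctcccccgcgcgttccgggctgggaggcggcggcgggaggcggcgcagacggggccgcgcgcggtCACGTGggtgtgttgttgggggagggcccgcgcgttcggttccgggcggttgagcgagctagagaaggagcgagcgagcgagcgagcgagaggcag
The E-box begins 68 bases before the start of Lamtor1, 120 and 104 bases before that of Lamtor4, and 96 bases before that of Rheb. The differences of these 3 transcripts between TCQA and control are given below, and no measurement of factor binding was analysed here.

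Lamtor1 encodes the lipid-anchored subunit that ties the complex to the lysosome and wraps around the others. Its brighter probe set (1417463_PM_a_at) had log2 values of 6.77 on TCQA 1 and 6.63 on TCQA 2, against 7.67 on Control 1 and 6.99 on Control 2. Both TCQA arrays lay below both control arrays. The mean was 6.70 ± 0.10 with TCQA and 7.33 ± 0.48 in the control (SD, n = 2 each), and limma gave a difference of -0.63 on the log2 scale (standard error 0.39, adjusted p = 0.92), with -0.29 without Control 1 and 0.81 after a further quantile normalization. The dimmer probe set (1448718_PM_at) had 2.15 on TCQA 1 and 2.00 on TCQA 2, against 2.87 on Control 1 and 2.19 on Control 2. It showed the same order of arrays, with a difference of -0.46 on the log2 scale (standard error 0.39), -0.11 without Control 1 and -0.49 after the further normalization. It was above the highest nonspecific probe set on Control 1 only, so its order among the other 3 arrays adds nothing to that of the brighter one.

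Lamtor2 and Lamtor3 encode a pair of roadblock-fold proteins that bind each other inside Ragulator and also hold MEK and ERK kinases on late endosomes. Lamtor2 (1422797_PM_at) had log2 values of 2.30 on TCQA 1 and 2.08 on TCQA 2, against 5.06 on Control 1 and 2.07 on Control 2. Control 2 was therefore below both TCQA arrays, and Control 1 stood above the rest. Its mean differed by -1.37 on the log2 scale (standard error 1.05, limma adjusted p = 0.92) with all arrays and by 0.12 (standard error 0.29) without Control 1. The second Lamtor2 probe set (1435729_PM_at) had the opposite order for Control 1, with 3.23 on TCQA 1 and 2.67 on TCQA 2, against 2.11 on Control 1 and 2.86 on Control 2. Its log2 fold change was 0.46 (standard error 0.45), so the 2 probe sets of this gene gave opposite signs with all arrays and values of 0.12 and 0.08 without Control 1. The first was above the highest nonspecific probe set on Control 1 only, so its 0.12 compares values no higher than that background. Lamtor3, measured by 1 probe set, had 4.53 on TCQA 1 and 4.38 on TCQA 2, against 6.38 on Control 1 and 4.19 on Control 2. Like Lamtor2, it had both TCQA arrays above Control 2 and below Control 1. With all arrays its log2 fold change was -0.83 (standard error 0.80) and without Control 1 it was 0.27 (standard error 0.29).

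Lamtor4 and Lamtor5 encode the second roadblock pair of the complex. Lamtor4 had log2 values of 2.92 on TCQA 1 and 2.97 on TCQA 2, against 5.42 on Control 1 and 3.37 on Control 2. Both TCQA arrays were below both control arrays, and they differed from each other by 0.05. The mean was 2.95 ± 0.03 with TCQA and 4.39 ± 1.45 in the control (SD, n = 2 each). The log2 fold change of -1.45 (standard error 0.75, unadjusted p = 0.12, adjusted p = 0.92 from limma) had the smallest p of the 20 probe sets, and it was -0.42 (standard error 0.28) without Control 1. Lamtor5 had 4.58 on TCQA 1 and 4.07 on TCQA 2, against 6.32 on Control 1 and 4.58 on Control 2. TCQA 1 was a shade above Control 2, so the groups overlapped. Its difference was -1.13 on the log2 scale (standard error 0.68), and without Control 1 it was -0.26 (standard error 0.34). For each of the 5 subunits the group difference was smaller than the difference between the control arrays, which was between 0.68 for Lamtor1 and 2.99 for Lamtor2.

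**Figure D2:**
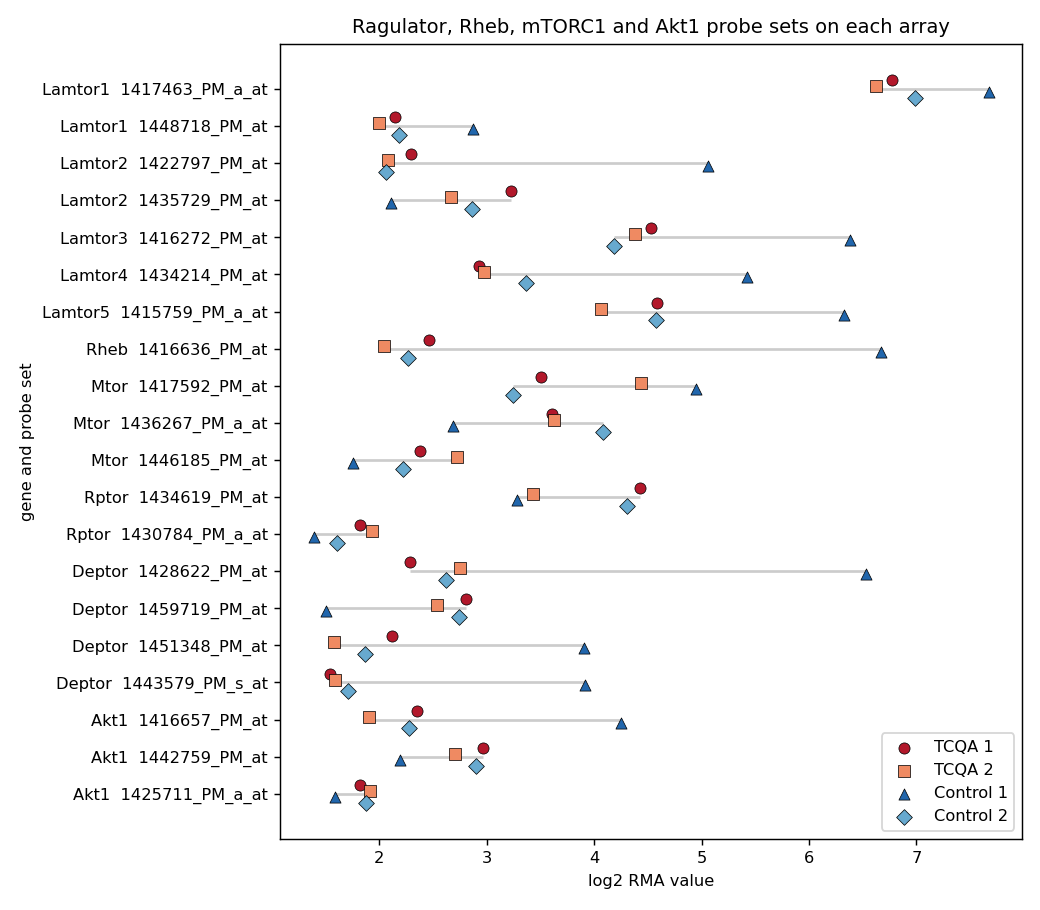
Log2 value of each of the 20 probe sets (rows) on each of the 4 arrays (symbols, TCQA above control within a row). Control 1 is the highest array for 12 probe sets and the lowest for 8, and the other 3 arrays lie within 1 log2 unit of each other for 19 of the 20.

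Rheb, the small GTPase that activates the mTORC1 kinase when it carries GTP, had the largest gap between the control arrays among the 20 probe sets. Its log2 values were 2.47 on TCQA 1 and 2.04 on TCQA 2, against 6.67 on Control 1 and 2.27 on Control 2. Control 2 lay between both TCQA arrays. The mean was 2.25 ± 0.30 with TCQA and 4.47 ± 3.11 in the control (SD, n = 2 each), with a difference of -2.21 on the log2 scale (standard error 1.51, limma adjusted p = 0.92). Without Control 1 it was -0.01 (standard error 0.32), and after the further quantile normalization with all arrays it was -1.51. Rheb was above the highest nonspecific probe set on Control 1 only, so the -0.01 compares values no higher than that background.

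Mtor, the kinase itself, was measured by 3 probe sets that disagreed on which control array was higher. The one with the highest mean (1417592_PM_at) had log2 values of 3.504 on TCQA 1 and 4.44 on TCQA 2, against 4.95 on Control 1 and 3.24 on Control 2. Both TCQA arrays lay between the control arrays. Its log2 fold change was -0.12 (standard error 0.72), 0.73 (standard error 0.45) without Control 1 and 0.53 after the further normalization. The second probe set (1436267_PM_a_at) had 3.60 on TCQA 1 and 3.62 on TCQA 2, against 2.68 on Control 1 and 4.08 on Control 2. There the order of the control arrays was reversed, and the difference was 0.23 on the log2 scale (standard error 0.56) with all arrays and -0.46 (standard error 0.28) without Control 1. The dimmest (1446185_PM_at) had 2.38 on TCQA 1 and 2.72 on TCQA 2, against 1.76 on Control 1 and 2.22 on Control 2. Both TCQA arrays were above both control arrays for this probe set, with log2 fold changes of 0.56 (standard error 0.37) and, without Control 1, 0.33. However, it was not above the highest nonspecific probe set on any array.

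Rptor encodes raptor, the subunit that recognises substrates and docks mTORC1 on the Rag GTPases. Its brighter probe set (1434619_PM_at) had log2 values of 4.43 on TCQA 1 and 3.44 on TCQA 2, against 3.28 on Control 1 and 4.30 on Control 2. The arrays of each group were about 1 log2 unit apart, and Rptor was the only one of the 10 genes whose probe set of highest mean did not have Control 1 on top. Its log2 fold change was 0.14 (standard error 0.57) with all arrays and -0.37 (standard error 0.47) without Control 1. The dimmer probe set (1430784_PM_a_at) had 1.82 on TCQA 1 and 1.93 on TCQA 2, against 1.39 on Control 1 and 1.61 on Control 2, so that the TCQA arrays were the higher ones. Its log2 fold change was 0.37 (standard error 0.33), and 0.27 without Control 1, but it was not above the highest nonspecific probe set on any array.

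Deptor encodes an inhibitor that binds mTOR in both of its complexes. The probe set of highest mean (1428622_PM_at) had log2 values of 2.29 on TCQA 1 and 2.75 on TCQA 2, against 6.53 on Control 1 and 2.62 on Control 2. Control 2 lay between both TCQA arrays, with a difference of -2.05 on the log2 scale (standard error 1.35, limma adjusted p = 0.92) for all arrays and -0.10 (standard error 0.33) without Control 1. Probe set 1443579_PM_s_at had 1.54 on TCQA 1 and 1.58 on TCQA 2, against 3.92 on Control 1 and 1.71 on Control 2. Its TCQA arrays were both below both control arrays, and its log2 fold change was -1.25 with all arrays and -0.15 without Control 1. Probe set 1451348_PM_at had 2.12 on TCQA 1 and 1.58 on TCQA 2, against 3.91 on Control 1 and 1.86 on Control 2, so that the difference was -1.04 on the log2 scale, and -0.02 without Control 1. In the fourth (1459719_PM_at), Control 1 was the lowest array, with 2.81 on TCQA 1 and 2.54 on TCQA 2, against 1.502 on Control 1 and 2.75 on Control 2. This gave a log2 fold change of 0.55 with all arrays and -0.07 without Control 1. The 4 Deptor probe sets therefore ranged from -2.05 to 0.55 with all arrays and from -0.15 to -0.02 without Control 1. The fourth was above the highest nonspecific probe set on Control 2 only, and the others on Control 1 only. The values without Control 1 therefore compare signals near or below that background.

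Akt1 encodes the growth factor kinase that acts on the TSC complex upstream of Rheb. Its probe set of highest mean (1416657_PM_at) had log2 values of 2.35 on TCQA 1 and 1.90 on TCQA 2, against 4.25 on Control 1 and 2.28 on Control 2. The log2 fold change of -1.14 (standard error 0.74) was -0.15 (standard error 0.33) without Control 1. The other probe sets had Control 1 as the lowest array. Probe set 1442759_PM_at had 2.97 on TCQA 1 and 2.70 on TCQA 2, against 2.19 on Control 1 and 2.90 on Control 2, with log2 fold changes of 0.29 and, without Control 1, -0.06. Probe set 1425711_PM_a_at had 1.82 on TCQA 1 and 1.91 on TCQA 2, against 1.58 on Control 1 and 1.88 on Control 2, with log2 fold changes of 0.14 and, without Control 1, -0.01. Control 2 lay between both TCQA arrays for all 3 Akt1 probe sets. Of these, 1416657_PM_at was above the highest nonspecific probe set on Control 1 only, 1442759_PM_at on Control 2 only and 1425711_PM_a_at on no array.

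**Figure D3:**
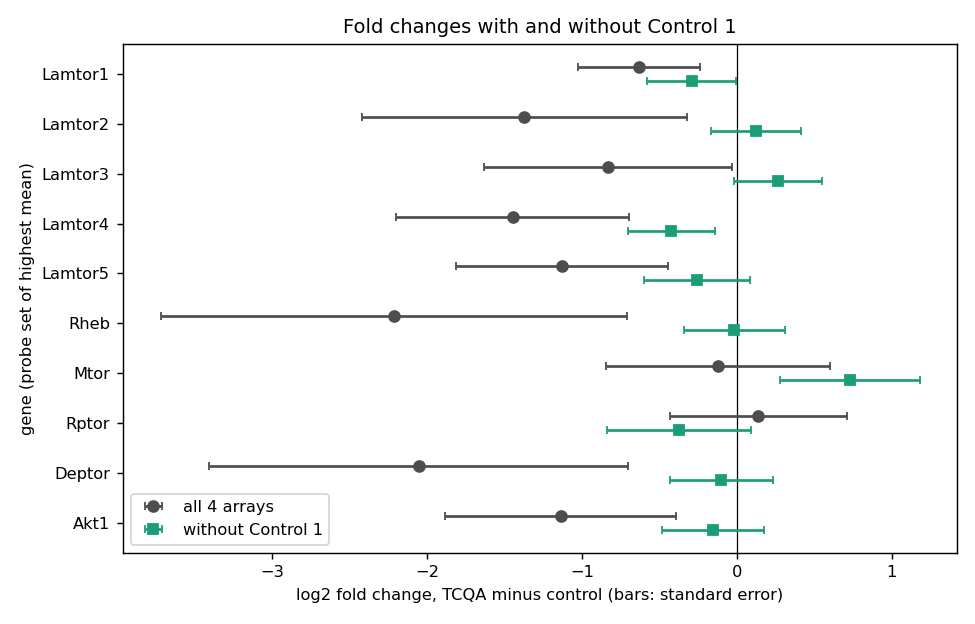
Log2 fold change (TCQA minus control) of each of the 10 genes, from the probe set of highest mean, with all 4 arrays (circles) and without Control 1 (squares), with bars of 1 standard error from limma. Rheb is at -2.21 with all arrays and at -0.01 without Control 1, and the squares lie between -0.42 and 0.73.

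Across the 20 probe sets, none passed an adjusted p of 0.05 in limma in either direction, where 0% of all 45037 probe sets did, and none had an unadjusted p under 0.05, where 0.313% of all did. An unmoderated test called none at an adjusted p of 0.05, for the members and for all, and at an unadjusted p under 0.05 it had 0 of the 20 and 1.67% of all. With 2 arrays against 2, an exact permutation test cannot go below p = 0.333. The methods count a 2-fold change on the arrays as significant, with an unpaired one-way analysis of variance. By that size alone, 8 of the 20 were lower (11.3% of all probe sets) and 0 higher (1.04% of all) with TCQA, namely 1 probe set each of Lamtor2, Lamtor4, Lamtor5, Rheb and Akt1 and 3 of Deptor, and without Control 1 it was 0 lower (0.375% of all) and 0 higher (0.16% of all). With a limma p no higher than 0.05 added to the 2-fold change, 0 of the 20 passed, against 0.122% of all probe sets lower and 0.135% higher with TCQA. Both TCQA arrays lay below both control arrays for 4 of the 20 (10.9% of all probe sets) and above both for 2 (17.9% of all). The 4 were both probe sets of Lamtor1, that of Lamtor4 and 1 of Deptor, and the 2 belonged to Mtor and Rptor. Against the highest of the nonspecific control probe sets, described below, these Mtor and Rptor probe sets were not above it on any of the 4 arrays, Lamtor4 was above it on the control arrays only, and the Deptor and dimmer Lamtor1 probe sets were above it on Control 1 only. The group difference was smaller than the difference between the control arrays for 18 of the 20, as it was for 80.2% of all probe sets. Control 2 lay between both TCQA arrays for 10 of the 20 (38.2% of all), and these 3 arrays were within 1 log2 unit of each other for 19 (94.4% of all).

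The size of the differences depended on which control array was kept. Control 1 was the highest of the 4 arrays for 12 of the 20 probe sets (28% of all) and the lowest for the other 8 (58.3% of all). The log2 fold change was negative for 12 of the 20 (38.9% of all), with a median of -0.54 against 0.12 for all probe sets, and the median of the 20 was 0.07 after a further quantile normalization. Without Control 1, 14 of the 20 had a negative log2 fold change (53.3% of all), with a median of -0.07 against -0.02 for all probe sets, and none was called, with Control 2 assumed to vary like the TCQA pair. There, both TCQA arrays lay below Control 2 for 5 of the 20 (33.8% of all) and above it for 5 (27.2% of all). Without Control 2, which leaves Control 1 as the only control array, 9 of the 20 were lower (16.1% of all) and 1 was higher (7.34% of all) at an adjusted p under 0.05 in limma, with the lone array again assumed to vary like the TCQA pair. With a 2-fold change and an unadjusted limma p no higher than 0.05, the counts were 9 (17.7% of all) and 1 (12.3% of all). The 9 belonged to Lamtor2, Lamtor3, Lamtor4, Lamtor5, Rheb, Deptor and Akt1, and the 1 to Deptor.

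With 1 probe set per gene, that of highest mean, 9 of the 10 genes had a negative log2 fold change (43.8% of all 17097 genes), 6 were at least 2-fold lower (14.5% of all) and 0 higher (1.19% of all), Control 1 was the highest array for 9 (33.9% of all) and the lowest for 1, Rptor (53.6% of all). Control 1 counts in that mean, so the choice favours probe sets that were high there. Both TCQA arrays lay below both control arrays for 2 genes, Lamtor1 and Lamtor4 (13.6% of all), and above both for 0 (16% of all). Against Control 2 alone, both TCQA arrays were lower for the same 2 genes (34.9% of all) and higher for 3, Lamtor2, Lamtor3 and Mtor (26.3% of all), with Control 2 between them for the other 5 (38% of all). Control 1 was at least 1 log2 unit above Control 2 for 8 of the 10 (22% of all), and without Control 1 the log2 fold change was negative for 7 (54.7% of all). The group difference was smaller than the difference between the control arrays for all 10 (82.1% of all). The 3 arrays other than Control 1 lay within 1 log2 unit for 9 (94.3% of all), the exception being Mtor. A negative log2 fold change was also found for 68 of 69 ribosomal protein genes, 64 of 70 respiratory chain genes and 6 of 6 keratinocyte genes. Their medians were -3.04, -2.46 and -2.48, and that of the 10 genes was -1.13. Of 6 melanocyte genes, 0 were negative.

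Probe sets of 1 gene often gave opposite signs. Of the 6 members with several probe sets, 4 (Lamtor2, Mtor, Deptor and Akt1) had log2 fold changes of both signs, as had 49.7% of all 7180 genes with several probe sets. Brightness over background also differed among members. Background was read from 22 nonspecific control probe sets, whose letters match no mouse gene by design. Their names give a GC number of 3 to 24, and any of a higher number was left out. The 22 reached at most 2.98 on TCQA 1 and 3.40 on TCQA 2, against 2.31 on Control 1 and 2.62 on Control 2. Of the 20 member probe sets, 7 exceeded that level on TCQA 1 and 6 on TCQA 2, against 14 on Control 1 and 10 on Control 2, and of all probe sets 33.7% and 19.6% did, against 49.3% and 47.2%. The brighter probe sets of Lamtor1 and Rptor, the probe sets of Lamtor3 and Lamtor5 and 2 of Mtor exceeded it on all 4 arrays. The probe sets of Rheb, the first of Lamtor2 and Akt1, the dimmer one of Lamtor1 and 3 of the 4 of Deptor exceeded it on Control 1 and on no other array, so in TCQA-treated skin they did not exceed the highest nonspecific probe set.

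**Figure D4:**
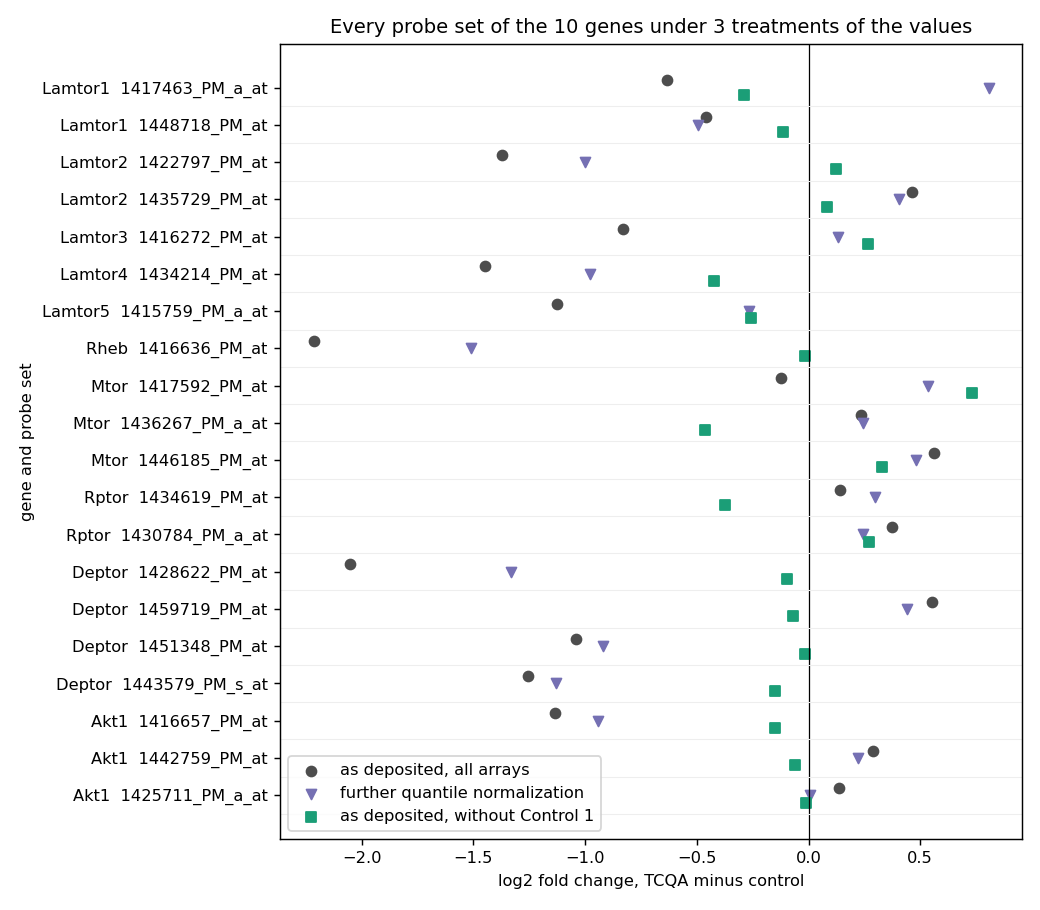
Log2 fold change (TCQA minus control) of the 20 probe sets (rows) with all arrays as deposited (circles), after a further quantile normalization (triangles) and without Control 1 (squares). The Lamtor1 probe set 1417463_PM_a_at is at -0.63, 0.81 and -0.29, and the squares lie between -0.46 and 0.73.

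Beyond the 10 genes, 59 of 74 listed genes of the same pathway were measured, from the Rag GTPases to the targets of mTORC1. With the probe set of highest mean, the log2 fold change was negative for 38 and positive for 21. It was negative for 43.8% of all 17097 genes. None of the 59 was called (limma, adjusted p under 0.05, 0% of all genes). Their median was -0.44 with all arrays, against 0.08 for all genes. Without Control 1 it was 0.01, where 29 were negative (54.7% of all genes) and 30 positive. By size alone, 18 of the 59 were at least 2-fold lower (14.5% of all genes) and 0 higher (1.19% of all) with all arrays. With a limma p no higher than 0.05 added, Pik3ca, which encodes a catalytic subunit of PI3-kinase, was the 1 gene that passed (lower, 0.17% of all genes; 0.14% higher). It had log2 values of 3.58 on TCQA 1 and 2.80 on TCQA 2, against 5.46 on Control 1 and 4.36 on Control 2, with a difference of -1.72 on the log2 scale (standard error 0.55, limma adjusted p = 0.92) and, without Control 1, -1.17 (standard error 0.40).

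Near the lysosome surface, the Rag GTPases bind Ragulator directly, and 2 of the 4 listed were measured. Rragd had log2 values of 2.29 on TCQA 1 and 2.34 on TCQA 2, against 6.77 on Control 1 and 1.93 on Control 2, with log2 fold changes of -2.03 and, without Control 1, 0.39. Rragc had -1.64 and, without Control 1, -0.04. The V-ATPase, the proton pump that signals to Ragulator, was negative for 10 of 12 measured genes (43.8% of all genes). Their median was -0.76. Without Control 1 it was -0.05, with 8 negative (54.7% of all genes) and 4 positive. The largest V-ATPase differences were -2.15 for Atp6v1f, -1.83 for Atp6ap1 and -1.53 for Atp6v1e1, and without Control 1 they were -0.21, -0.15 and -0.07. Among amino acid sensors and the FLCN complex, 6 of 8 genes were negative (43.8% of all genes). Their median was -0.48 and, without Control 1, 0.16. Slc38a9, the lysosomal arginine transporter that binds Ragulator, had 4.67 on TCQA 1 and 4.35 on TCQA 2, against 3.57 on Control 1 and 3.80 on Control 2. Both TCQA arrays were above both control arrays, with a difference of 0.82 on the log2 scale (standard error 0.34, limma adjusted p = 0.92) that became 0.71 without Control 1. Castor2, related to the cytosolic arginine sensor, had -1.53 and Fnip1, a partner of FLCN, -1.09, and without Control 1 these were -0.28 and 0.14.

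Genes of the complexes that inhibit or assemble the kinase had log2 fold changes of both signs. GATOR1, which turns the Rags off, was measured with KICSTOR by 4 genes with log2 fold changes between 0.03 and 0.09, and their median of 0.07 was -0.02 after centring the arrays on the median. Within that list, Nprl2, Depdc5 and Itfg2 had 0.09, 0.08 and 0.06, and without Control 1 they had 0.34, -0.81 and -0.08. GATOR2, which opposes GATOR1, had a median of 0.46 over 5 genes, with -0.84 for Sec13, 0.56 for Seh1l and 0.52 for Wdr59. Without Control 1 the GATOR2 median was 0.15 and these genes had 0.18, 0.10 and 0.34. The TSC complex switches Rheb off, and 2 of its 3 listed genes were measured. These, Tbc1d7 and Tsc1, had 0.55 and 0.08 with all arrays and -0.17 and -0.71 without Control 1. The other subunits of both mTOR complexes had a median of 0.32 over 7 genes, with -1.52 for Rictor, which defines mTORC2, -0.90 for Tti1 and 0.84 for Telo2, the last 2 being assembly factors of the kinase. Without Control 1 these were 0.04, -0.12 and 0.52.

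Upstream of the kinase, all 8 measured genes of growth factor input had log2 fold changes below 0 (43.8% of all genes). Their median was -0.99, and 5 of the 8 had both TCQA arrays below both control arrays (13.6% of all genes). Besides Pik3ca, the insulin receptor substrate Irs1 had -1.82 and the kinase Akt2 -1.30. Without Control 1, the list had 5 negative (54.7% of all genes) and 3 positive values with a median of -0.24. Irs1 and Akt2 then had -0.33 and -0.87. Downstream, of 11 measured targets of mTORC1, 8 were negative (43.8% of all genes). The median of the 11 was -0.40 with all arrays and 0.01 if Control 1 was left out. Rps6, a ribosomal protein and substrate of S6 kinase, had -3.13, the autophagy kinase Ulk1 -1.32 and the translation repressor Eif4ebp1 -1.18, and without Control 1 these were -0.73, -0.65 and -0.04.

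**Figure D5:**
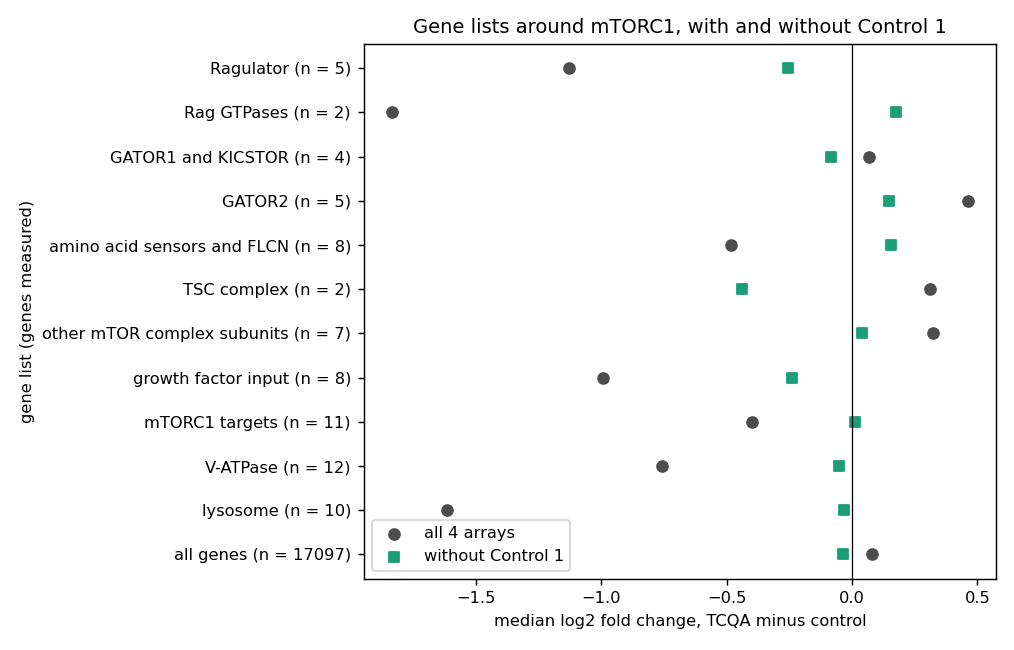
Median log2 fold change (TCQA minus control) of Ragulator, 10 other gene lists and all genes, with all 4 arrays (circles) and without Control 1 (squares), the number of measured genes in brackets. Ragulator is at -1.13 and -0.26, the Rag GTPases are at -1.83 and 0.18, and all genes are at 0.08 and -0.03.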

How the data were processed

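Transcript levels were read on 4 mouse PM array strips (Affymetrix), 2 per group. For each array the authors deposited a log2 value per probe set from RMA (background correction, normalization and summary over probes). Besides RMA, the submitters' processing notes name Expression Console and Transcriptome Analysis Console of Affymetrix. Whether the 4 arrays were normalized together is not given in the sources used here.

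Groups were taken from the sample titles. Of 45141 probe sets, 104 Affymetrix controls were left out of the tests. The platform annotation gave 1 gene for 28898 of the remaining 45037, several for 551 and none for 15588, and of those with 1 gene, 28689 could be matched to RefSeq's gene table (GRCm38.p6). TCQA and control were set against each other in R 4.3.3 by lmFit and eBayes of limma 3.58.1, unfiltered. Two-sided p-values were adjusted after Benjamini-Hochberg for 45037 probe sets, and the residual degrees of freedom were 2. A gene is represented by its probe set of highest mean over the 4 arrays, in which Control 1 counts. The fit was tested on simulated data, made from the means without Control 1 and with a spread taken from the TCQA arrays. All simulated arrays varied alike, so that test does not cover an array that differs from the rest as Control 1 does. Every probe set of the members is named, and up to 3 genes of each pathway list with the largest differences, as values only. The members, lists and tests were chosen with earlier results of these data known.

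The alternatives tried were quantile normalization once more, median centring of the arrays, and leaving out dim probe sets. In another setting, probe sets whose names end in _x_at, _s_at or _a_at were left out. Further ones were limma's trend and robust options, an unmoderated test, a replicate block, leaving out each array, and other rules for a gene's probe set. Log2 values carry no depth, and the number of arrays limits the precision.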

Additional observations from a re-analysis of the deposited data

Results flagged for a closer look

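The bacterial hybridization spikes, which the comparisons do not use, had a median above that of both control arrays. This median log2 value of their 9 probe sets was 10.21 on TCQA 1 and 10.68 on TCQA 2, against 6.45 on Control 1 and 10.17 on Control 2. All 9 probe sets were higher on both TCQA arrays than on Control 1. Against Control 2, 9 of the 9 were higher on TCQA 2 and 5 of the 9 on TCQA 1, and the difference was not tested. The groups of 2 arrays are too small for a test of outlying arrays. Over all probe sets, Control 1 correlated at 0.41 with each other array. Control 2, TCQA 1 and TCQA 2 correlated with each other at 0.88 to 0.96. Control 1 had 522 probe sets at a log2 value of 8 or more, against 26 on Control 2, 31 on TCQA 1 and 23 on TCQA 2.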

How the results depend on the processing

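The counts of called probe sets were 0 in both directions, for the 20 member probe sets and for all 45037, under every alternative except leaving out an array, where they reached 7231 lower and 3307 higher in all and 9 lower and 1 higher among the members, each of these without Control 2, and otherwise 0. The members with a 2-fold change and an unadjusted p no higher than 0.05 were 0, and leaving out an array gave 0 to 9 lower and 0 to 1 higher, again without Control 2. By the 2-fold change alone, a count added after seeing the data, 8 were lower and 0 higher. With a replicate block the calls were 0 as well. Deviations of same-numbered arrays correlated at -0.12, and with 2 arrays per group the crossed numbers give 0.12 by construction. These values cannot tell which arrays pair. The block with crossed numbers was added after seeing the data, and it called 0. The numbers of the labels do not pair animals. The count of members below both control arrays on TCQA was 4 (10.9% of all probe sets). It was 2 without dim probe sets and 2 without those ending in _x_at, _s_at or _a_at, which are fewer by construction. When an array was left out it was 5 to 12, and it cannot fall there, since fewer arrays have to keep the order. Beside the 5 without Control 1 stand 33.8% of all probe sets, and for the other arrays the share was not counted. Leaving out an array gave medians from -0.98 to -0.07 for the 20 probe sets and from -1.999 to -0.26 for the Ragulator subunits, whose value of -1.13 was -0.27 after a further quantile normalization. The Lamtor5 probe set and the brighter one of Lamtor1 end in _a_at, so they are not in the values without those suffixes.

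Directions were followed for the members and the named pathway genes only, and other listed genes could change as well. Among these, the direction changed after a further quantile normalization for Lamtor1 (0.81), Lamtor3 (0.13), Mtor (0.53) and Depdc5 (-0.043). It changed after centring on the median for Depdc5 (-0.0085), Itfg2 (-0.029) and Tsc1 (-0.011). With the probe set of highest mean on the arrays other than Control 1 it changed for Lamtor2 (0.46), Mtor (0.23), Deptor (0.55) and Akt1 (0.29), and with the mean of its probe sets for Mtor (0.22). The cause was not tested. Leaving out 1 array turned the sign of the log2 fold change for the following probe sets, each given from lowest to highest. Lamtor2 (1422797_PM_at) ranged from -2.87 to 0.12, Lamtor3 from -1.93 to 0.27, Mtor from -0.98 to 0.73 (1417592_PM_at) and from -0.46 to 0.93 (1436267_PM_a_at), Rptor (1434619_PM_at) from -0.37 to 0.65, Deptor (1459719_PM_at) from -0.071 to 1.17, and Akt1 from -0.061 to 0.64 (1442759_PM_at) and from -0.013 to 0.28 (1425711_PM_a_at). Of the named pathway genes, Rragd ranged from -4.45 to 0.39, Nprl2 from -0.16 to 0.34, Depdc5 from -0.81 to 0.97, Itfg2 from -0.15 to 0.27, Sec13 from -1.85 to 0.18, Fnip1 from -2.31 to 0.14, Tbc1d7 from -0.17 to 1.26, Tsc1 from -0.71 to 0.86, Rictor from -3.09 to 0.039, Ctsb from -4.07 to 0.0079 and Lamp1 from -3.71 to 0.17.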

Other observations

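Genes of the lysosome itself, where Ragulator sits, were measured for 10 of a list of 12. Of these 10, 8 had a negative log2 fold change (43.8% of all genes) and 2 a positive one, and none passed the test (0% of all genes). The median was -1.62 with all arrays and -0.03 without Control 1. Ctsl, a cysteine protease of the lysosome, had log2 values of 1.89 on TCQA 1 and 1.58 on TCQA 2, against 6.35 on Control 1 and 1.90 on Control 2, with log2 fold changes of -2.39 and, without Control 1, -0.17. Ctsb, a related protease, had -2.03 and, without Control 1, 0.0079. Lamp1, an abundant membrane protein of lysosomes, had 4.29 on TCQA 1 and 4.53 on TCQA 2, against 8.12 on Control 1 and 4.24 on Control 2, with log2 fold changes of -1.77 and, without Control 1, 0.17.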
